A study of Mus musculus with 18 samples.

Results

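The interleukin 1 and interleukin 18 family was described across 4 groups of transplanted mice through 10 genes, each taken from the probe sets whose annotated symbol was exactly that of the gene. These were the ligands Il18, Il1a, Il1b and Il33, the inhibitors Il18bp and Il1rn, the receptor chains Il18r1, Il18rap and Il1rl1, and the activating protease Casp1. Of the 10 genes, 9 had a probe set, 1 each, among the 22180 genes tested. Il1rl1, which encodes the receptor for IL-33, had none listed under its symbol and was not analysed here.

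The samples were ilea of 18 B10.BR recipient mice, read on 1 whole-transcript array each, 21 days after an allogeneic transplant from C57Bl/6 donors. All recipients were 8 to 12 weeks old at transplant, received 11 Gy of total body irradiation on day -1 and 5000000 donor marrow cells depleted of T cells on day 0. T cell mice also received 2000000 purified donor T cells, and per the labels these animals develop graft-versus-host disease (GvHD), in which the grafted T cells attack the host; marrow-only mice received no added T cells. From day -1 to day 21 each mouse was gavaged daily with indole-3-carboxaldehyde (ICA) at 150 mg/kg, a product of tryptophan that binds the aryl hydrocarbon receptor, or with its vehicle of 20% DMSO, 40% PEG400 and 2% citric acid. With T cells there were 5 mice on ICA and 4 on vehicle, and with marrow only 5 on ICA and 4 on vehicle. All mice were irradiated and transplanted, so the marrow-only mice are not healthy controls, and the ileum of each could hold cells of both donor and host.

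The cytokines of this family are alarm signals of barrier tissues. Interleukin 18 (IL-18) is made as an inactive precursor, in the gut mainly by epithelial cells, and is cut to its active form by caspase-1 within inflammasomes; it acts through a receptor of 2 chains on T cells and natural killer cells, where together with interleukin 12 it drives interferon gamma, and is held in check by a secreted binding protein. Interleukin 1 alpha and beta (IL-1 alpha and IL-1 beta) are made by myeloid cells and, for the alpha form, also by epithelium, and they signal through the adaptor MyD88 to the transcription factor NF-kB. IL-33 is a nuclear alarmin of stromal, endothelial and epithelial cells. Transcript levels, as measured here, do not show how much precursor was cut or secreted.

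The start regions of 4 genes are shown because 2 of the patterns below concern them: Il18 and Tex12, a gene that lies within the span of Il18 on the opposite strand, and the neighbours Il1a and Il1b. Each window runs from 250 bases before to 50 bases after the annotated start (RefSeq, GRCm38.p6), 5′ to 3′ on the strand of the gene, with the motif letters found by a search of both strands in capitals. The Il18 window lies at chr9:50554450-50554749 on the plus strand, that of Tex12 at chr9:50561219-50561518 on the minus strand, that of Il1a at chr2:129309923-129310222 on the minus strand and that of Il1b at chr2:129371090-129371389 on the minus strand.
Il18: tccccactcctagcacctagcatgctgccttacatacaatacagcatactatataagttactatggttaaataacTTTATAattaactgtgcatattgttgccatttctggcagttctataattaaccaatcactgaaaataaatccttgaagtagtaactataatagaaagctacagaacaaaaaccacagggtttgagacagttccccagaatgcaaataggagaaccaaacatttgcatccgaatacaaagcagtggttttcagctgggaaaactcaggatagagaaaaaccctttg
Tex12: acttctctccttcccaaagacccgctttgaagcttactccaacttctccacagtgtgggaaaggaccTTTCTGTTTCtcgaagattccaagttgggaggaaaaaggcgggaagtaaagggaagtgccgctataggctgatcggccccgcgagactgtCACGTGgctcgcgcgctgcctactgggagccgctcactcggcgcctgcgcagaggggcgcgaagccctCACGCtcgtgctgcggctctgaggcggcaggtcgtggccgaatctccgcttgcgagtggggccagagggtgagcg
Il1a: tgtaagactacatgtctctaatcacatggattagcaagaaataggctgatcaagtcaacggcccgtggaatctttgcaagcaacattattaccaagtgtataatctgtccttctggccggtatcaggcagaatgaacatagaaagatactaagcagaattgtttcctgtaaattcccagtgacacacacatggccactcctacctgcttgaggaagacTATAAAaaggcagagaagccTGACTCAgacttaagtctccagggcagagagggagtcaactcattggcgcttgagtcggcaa
Il1b: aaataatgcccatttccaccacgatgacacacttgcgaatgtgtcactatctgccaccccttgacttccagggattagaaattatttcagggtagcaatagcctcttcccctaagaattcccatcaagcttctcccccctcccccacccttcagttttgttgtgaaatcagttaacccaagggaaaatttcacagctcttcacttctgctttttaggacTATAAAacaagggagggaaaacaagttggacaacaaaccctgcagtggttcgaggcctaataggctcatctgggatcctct

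Il1a and Il1b each held the TATA-box letters TATAAA, beginning at positions -32 and -31 from the annotated start. Il1a also held the AP-1 letters TGANTCA, beginning at position -12. The Il18 window held the TATA letters only on the reverse strand, beginning at position -175, and no match to the other letters searched. The Tex12 window, with 61.7% G and C against 36.7% in that of Il18, held the interferon-stimulated response element, the E-box letters CACGTG and the xenobiotic response core GCGTG, without overlap. Of 32851 promoter windows of the same length, 13.6% held the TATA letters, 7.81% those of AP-1, 3.44% those of the interferon-stimulated element, 7.15% the E-box and 32.4% the xenobiotic core. The gamma-activated site letters TTCNNNGAA (8.3% of windows) stood in 1 of the 3 windows of Il18r1, and the kappa-B site (8.46% of windows) was searched for as well and matched in none of the 4 windows shown. The windows of Il18bp and Il18rap held none of the 7 motifs. A match of letters is a description of these windows and was not tested for binding.

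Levels are the deposited normalised values on a log2 scale, on which 1 unit is a 2-fold change, and they are compared only between mice for the same gene. Differences are in log2 units, with SE, from a single limma model of the 18 arrays, and a gene was called changed at a Benjamini-Hochberg adjusted p under 0.05 over 22180 genes. The median of an array was 6.47 at the lowest and 6.51 at the highest. In 3 groups 1 array stood apart from its group: T cell ICA mouse 1, marrow-only ICA mouse 1 and marrow-only vehicle mouse 3. The rule, set after the data were seen, was a median r with its own group at least 0.0019 under the next lowest. Their median r was 0.985, 0.983 and 0.989, and that of marrow-only ICA mice 2 and 3, which were kept, was 0.988. The rule is relative to a group and does not show a poor array. Values without them are given beside Il18, Il1b, Il18bp and the called pathway genes whose call they changed. The labels call the samples biological replicates and name no batch.

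Il18 was the only family gene called changed, and it was lower in mice with donor T cells under both treatments. Under vehicle its level was 7.25, 7.58, 7.20 and 7.42 in the T cell mice, against 8.99, 8.80, 7.83 and 8.85 in the marrow-only mice. Every T cell mouse given vehicle lay below every marrow-only mouse given vehicle, although marrow-only mouse 3 lay well below the other 3 of its group. The means were 7.36 ± 0.17 with T cells and 8.62 ± 0.53 without (SD, n = 4 each), and Il18 fell by 1.25 ± 0.25 or 2.38-fold (limma adjusted p = 0.0129), ranking 91 by p among all genes. Of all genes, 1.47% were called in this comparison and 0.681% were called lower.

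Under ICA the Il18 level was 7.31, 7.24, 7.37, 7.61 and 8.03 in the T cell mice, against 8.62, 9.52, 8.69, 9.71 and 9.27 in the marrow-only mice. These groups did not overlap either, and they share no mouse with the groups given vehicle. The means were 7.51 ± 0.32 with T cells and 9.16 ± 0.49 without (SD, n = 5 each). Il18 fell by 1.65 ± 0.22 or 3.14-fold (limma adjusted p = 0.000342), ranking 19 by p, where 3.12% of all genes were called and 2.07% were called lower. Across treatments the arms overlapped only through T cell ICA mouse 5, at 8.03, which lay above marrow-only vehicle mouse 3, at 7.83.

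Without the 3 arrays that stood apart, Il18 fell by 1.52 ± 0.20 under vehicle (limma adjusted p = 0.000246) and fell by 1.74 ± 0.18 under ICA (limma adjusted p = 8.68e-06). These arrays include marrow-only vehicle mouse 3, the mouse with the lowest Il18 of its group. The vehicle call was lost without marrow-only vehicle mouse 1 (-1.13, adjusted p = 0.0541) or mouse 4 (-1.18, adjusted p = 0.0565), and over all alternatives the adjusted p of this limma comparison ran from 0.000246 to 0.0565. The ICA call was kept in all 30 alternatives run. In a piece of tissue, fewer cells that make a transcript and less transcript per cell cannot be told apart.

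**Figure D1:**
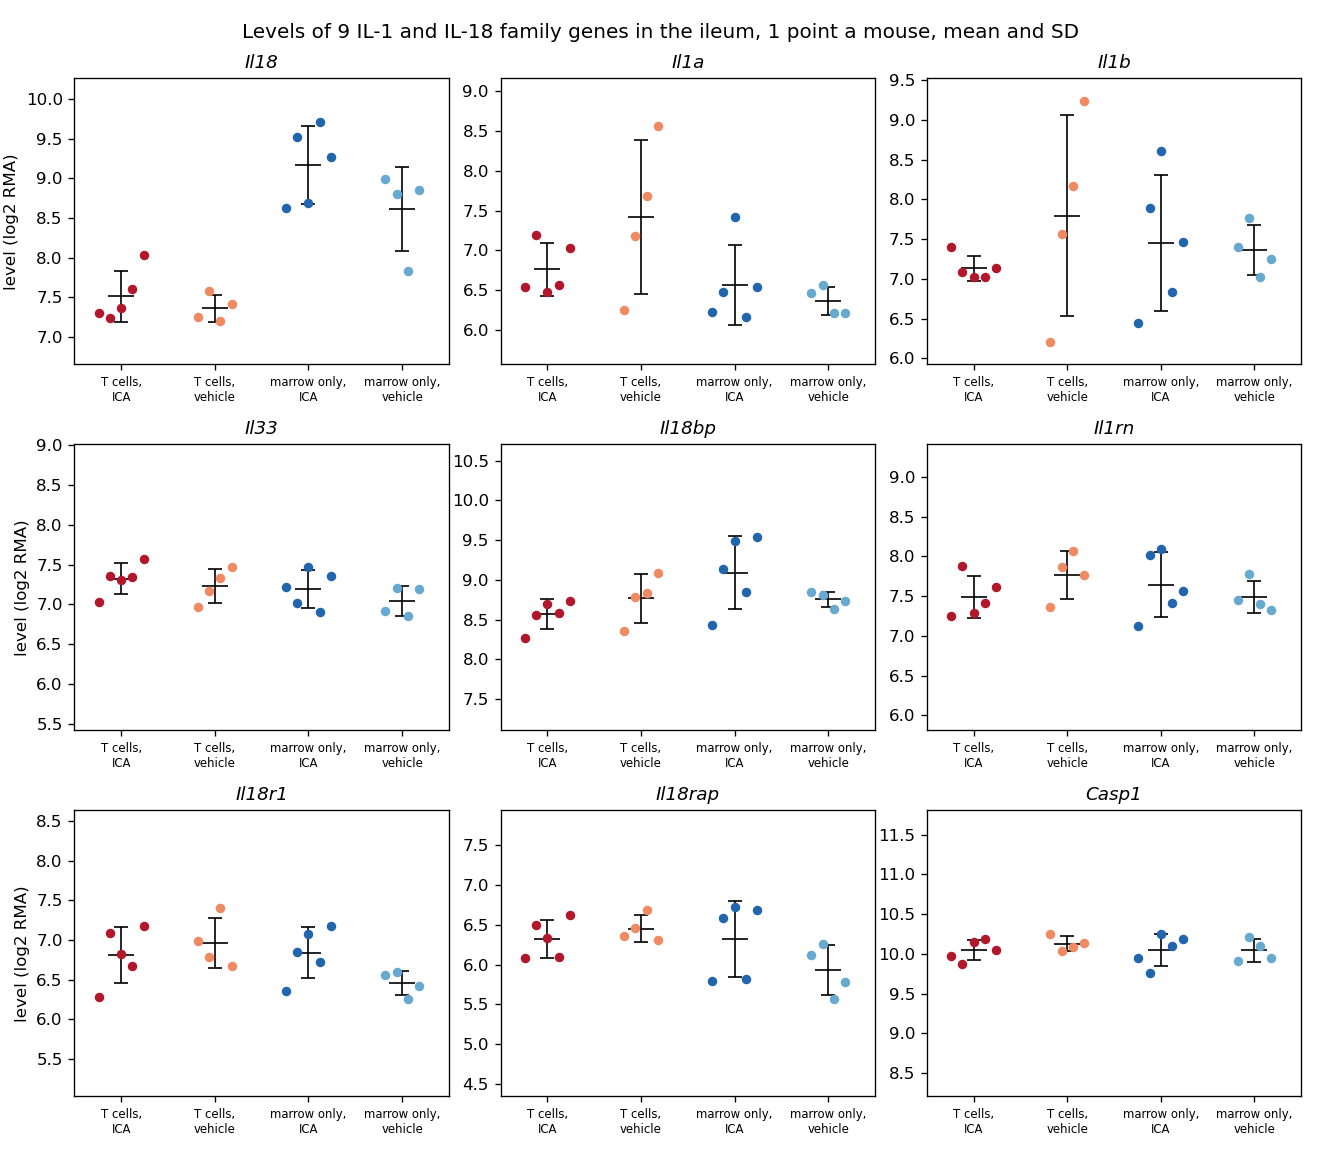
Levels of the 9 measured family genes (log2 RMA value, vertical axis, with the same span in each panel) in the 4 groups, 1 point a mouse, with the group mean and SD as bars. Il18 lies between 7.20 and 8.03 in the T cell mice and between 7.83 and 9.71 in the marrow-only mice, and Il1a and Il1b spread most widely in T cell mice given vehicle.

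ICA did not change Il18 at the threshold in either arm. It differed by 0.15 ± 0.23 between T cell mice given ICA and those given vehicle (95% interval -0.34 to 0.64, limma adjusted p = 0.948). Between marrow-only mice given ICA and those given vehicle it differed by 0.55 ± 0.23 (95% interval 0.06 to 1.03, limma adjusted p = 0.639, unadjusted p = 0.0292). The interaction, the T cell difference under ICA minus that under vehicle, was -0.40 ± 0.33 (limma adjusted p = 0.847), so the larger fall under ICA is not shown to differ from that under vehicle. Without marrow-only vehicle mouse 3 the Il18 difference between marrow-only mice given ICA and those given vehicle was 0.28 and the interaction was -0.13. Without the 3 arrays that stood apart they were 0.42 ± 0.20 and -0.22 ± 0.27 (limma adjusted p = 0.452 and 0.924).

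General epithelial markers, the genes of the cell layer that is the main source of IL-18 in the gut, did not move with Il18 as a list. The mean of 10 measured markers (Epcam, cadherin, keratins and others) lay between 11.22 and 11.36 in T cell mice given ICA, 11.30 and 11.33 in T cell mice given vehicle, 11.28 and 11.39 in marrow-only mice given ICA, and 11.26 and 11.37 in marrow-only mice given vehicle. Krt8 and Krt20, the keratins with the highest mean among them, differed by 0.02 ± 0.06 and -0.08 ± 0.08 under vehicle and by -0.02 ± 0.06 and -0.06 ± 0.07 under ICA. Of the 10, 1 was called, and it fell under both treatments: Elf3, an epithelial transcription factor named here after its values were seen, by 0.39 ± 0.09 under vehicle (limma adjusted p = 0.0294) and by 0.65 ± 0.08 under ICA (limma adjusted p = 0.000173). Markers of Paneth cells, which secrete antimicrobial peptides into the crypts, were below 0 difference for 6 of 6 genes under both treatments, 2 of them called lower in each. Of all genes, 0.681% were called lower under vehicle and 2.07% under ICA. The mean of the Paneth markers lay between 11.08 and 11.98 in T cell mice given ICA and 10.20 and 12.44 in T cell mice given vehicle. It lay between 12.02 and 12.35 in marrow-only mice given ICA and 12.24 and 12.44 in marrow-only mice given vehicle. Lyz1, a lysozyme, and Defa24, a defensin, which had the highest means of the list, were not called: they differed by -0.60 ± 0.18 and -0.81 ± 0.23 under vehicle and by -0.30 ± 0.16 and -0.30 ± 0.21 under ICA.

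Markers of B and plasma cells were likewise below 0 difference for 6 of 6 measured genes under both treatments, with medians of -0.66 under vehicle and -0.85 under ICA, and 2 and 3 of them were called lower. Their mean lay between 5.66 and 7.06 in T cell mice given ICA and 5.85 and 6.47 in T cell mice given vehicle, against 6.55 to 7.68 in marrow-only mice given ICA and 6.93 to 7.11 in marrow-only mice given vehicle. Jchain, the joining chain of secreted antibodies, differed by -2.05 ± 0.62 and -0.90 ± 0.55 under vehicle and ICA and was not called, whereas Cd79b, a part of the B cell receptor, fell by 0.71 ± 0.18 (limma adjusted p = 0.048) and 0.87 ± 0.16 (limma adjusted p = 0.0032). Markers of enterocytes, the absorptive cells, were above 0 difference for 9 of 10 genes under vehicle and 8 of 10 under ICA, with medians of 0.18 and 0.36, and 0 and 1 of them were called by limma. Their mean lay between 10.54 and 10.86 in T cell mice given ICA and 10.66 and 11.01 in T cell mice given vehicle, against 9.76 to 11.33 in marrow-only mice given ICA and 10.38 to 10.77 in marrow-only mice given vehicle. Anpep, an aminopeptidase, differed by -0.19 ± 0.07 and -0.04 ± 0.06 under vehicle and ICA. Sis, the sucrase-isomaltase, differed by 0.40 ± 0.19 under vehicle and rose by 0.79 ± 0.17 under ICA (limma adjusted p = 0.01). Smooth muscle markers were above 0 difference for 6 of 6 genes under both treatments, with medians of 0.33 under vehicle and 0.45 under ICA. Of them 0 were called higher under vehicle and 6 under ICA. Fibroblast markers were above 0 for 6 and 8 of 8 genes, with 0 and 3 called higher. Endothelial markers were above 0 for 4 and 6 of 7 genes, with 0 and 2 called higher. Over all genes 1.47% were called under vehicle and 3.12% under ICA. The part of any of these cells in the Il18 difference was not tested.

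The gene most like Il18 over the 18 arrays was Tex12, a meiotic chromosome protein gene, with r = 0.96, and it stayed the most like after each group's mean was taken off both (r = 0.893). Tex12 lies within the span of Il18 on the opposite strand in the RefSeq table of GRCm38.p6, which was looked up after the likeness was seen. Under ICA its level was 5.48, 5.74, 5.63, 5.82 and 6.56 in T cell mice, against 6.78, 7.20, 6.53, 7.29 and 7.05 in marrow-only mice. The groups overlapped only through T cell mouse 5, which is also the highest T cell mouse for Il18. Tex12 fell by 1.12 ± 0.21 under ICA (limma adjusted p = 0.00385) and differed by -0.71 ± 0.23 under vehicle (limma adjusted p = 0.143). Under vehicle it stood at 5.53, 6.16, 5.58 and 5.78 in T cell mice, against 6.86, 6.39, 5.84 and 6.78 in marrow-only mice, where mouse 3 was again the lowest. Whether the probe sets of Il18 and Tex12 read the same transcripts was not tested.

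Of the other neighbours of Il18 on chromosome 9, only Plet1 was called, under ICA, and it varied widely among marrow-only mice. Bco2, a carotenoid-cleaving enzyme gene that overlaps the start of Il18 on the opposite strand, differed by -0.21 ± 0.23 under ICA and -0.37 ± 0.25 under vehicle. Plet1, an epithelial surface protein gene 3 places away, fell by 1.99 ± 0.50 under ICA (limma adjusted p = 0.0319) and differed by -1.66 ± 0.56 under vehicle (limma adjusted p = 0.158). Under ICA Plet1 ran from 7.73 to 8.61 in T cell mice and from 8.17 to 11.96 in marrow-only mice. These groups overlapped through marrow-only mouse 1. Under vehicle it ran from 7.70 to 8.56 and from 8.65 to 10.60, without overlap. Sdhd, a subunit of mitochondrial complex II, differed by -0.25 ± 0.09 and -0.05 ± 0.10 under ICA and vehicle, and Timm8b, a mitochondrial import gene, by -0.28 ± 0.09 and -0.11 ± 0.10, none of them called. Ncam1, Pts and Nkapd1 were not called either.

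**Figure D2:**
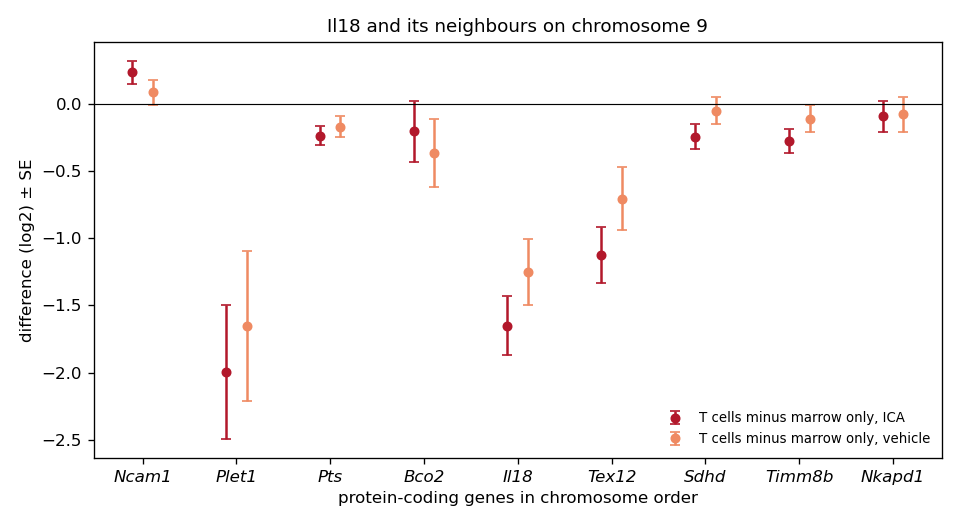
Difference between T cell and marrow-only mice (log2, vertical axis, with SE bars) for Il18 and its 8 measured protein-coding neighbours in chromosome order, under ICA and under vehicle. Il18, Tex12 and Plet1 lie at or below -0.71 under both treatments, and the other genes lie between -0.37 and 0.23.

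After Tex12, the genes most like Il18 over the 18 arrays were Slc37a1, a sugar phosphate transporter gene (r = 0.957), Efnb2, which encodes the membrane ligand ephrin-B2 (r = 0.938), Stom, which encodes the membrane protein stomatin (r = 0.938), and Mir5123 (r = 0.929). With each group's mean taken off, Arhgap23 (r = 0.831) and Fcrl5 (r = 0.828) followed Tex12. The arrays of a group share their treatment, so the first set of values reflects group differences as well as differences within groups. The second reflects only differences within groups, where mouse and array cannot be told apart. Stom fell by 1.28 ± 0.21 under vehicle (limma adjusted p = 0.00386) and by 1.47 ± 0.19 under ICA (limma adjusted p = 0.000285). Slc37a1 fell by 0.40 ± 0.08 and 0.48 ± 0.07, and Efnb2 by 0.39 ± 0.10 and 0.51 ± 0.09, under vehicle and ICA. No family gene was among those most like Il18: its r with the other 8 ran from -0.42 for Il1a to 0.525 for Il18bp.

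Il1a, the alpha form of interleukin 1, stood high in mice 2, 3 and 4 of the T cell group given vehicle. Its level was 6.25, 7.19, 7.68 and 8.57 in T cell mice given vehicle, against 6.46, 6.56, 6.21 and 6.21 in marrow-only mice given vehicle. Mouse 1 lay within the marrow-only range and the other 3 lay above all of it. The difference was 1.06 ± 0.34 or 2.08-fold and was not called (limma adjusted p = 0.126); it was called without T cell vehicle mouse 1 (1.45, adjusted p = 0.0128) and with array weights (1.11, adjusted p = 0.049), in a range of limma adjusted p from 0.0128 to 0.375 over the alternatives.

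In mice given ICA, Il1a stood at 6.53, 7.20, 6.47, 6.56 and 7.02 with T cells, against 6.22, 6.47, 7.42, 6.16 and 6.54 without them. The groups overlapped, and the difference was 0.20 ± 0.30 (limma adjusted p = 0.814). Between T cell mice given ICA and those given vehicle it was -0.66 ± 0.32 (95% interval -1.32 to 0.00, limma adjusted p = 0.728).

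Il1b, the beta form made mainly by myeloid cells, varied widely among T cell mice given vehicle. Its level was 7.40, 7.09, 7.02, 7.02 and 7.13 in T cell mice given ICA, against 6.21, 7.56, 8.17 and 9.24 in T cell mice given vehicle. The mice given ICA lay close together (SD 0.16) and inside the range of those given vehicle (SD 1.26). The difference between them was -0.66 ± 0.43 (limma adjusted p = 0.814); a difference in spread was not tested. In marrow-only mice Il1b was 6.44, 7.90, 8.60, 6.83 and 7.46 with ICA, against 7.41, 7.77, 7.03 and 7.25 with vehicle. Here the wider spread lay with ICA instead (SD 0.86, against 0.31 with vehicle). The difference between T cell and marrow-only mice was 0.43 ± 0.45 under vehicle (limma adjusted p = 0.768) and -0.31 ± 0.41 under ICA (limma adjusted p = 0.772). Single mice moved these values: the difference under vehicle was -0.05 without T cell vehicle mouse 4 and 0.96 without T cell vehicle mouse 1, and that under ICA was -0.02 without marrow-only ICA mouse 3 and -0.57 without marrow-only ICA mouse 1. Without the 3 arrays that stood apart they were 0.32 ± 0.47 under vehicle and -0.63 ± 0.43 under ICA. None of these was called.

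Il1a and Il1b, neighbours on chromosome 2, varied together from mouse to mouse. Over the 18 arrays r was 0.804, and 0.897 after group means were taken off; this describes mice that share groups and arrays. Neutrophil markers were highest in the same T cell vehicle mice: the mean of 8 markers was 5.77 in mouse 1, which had the lowest Il1a and Il1b, and 6.38, 6.61 and 6.52 in mice 2, 3 and 4. That mean lay between 5.55 and 6.26 in T cell mice given ICA, 5.33 and 6.01 in marrow-only mice given ICA and 5.45 and 5.80 in marrow-only mice given vehicle. Of the 8 markers, 7 were above 0 difference between T cell and marrow-only mice under vehicle and 1 was called, Retnlg, a resistin-like protein of neutrophils, at 2.20 ± 0.39 (limma adjusted p = 0.00565); Csf3r, the receptor of a neutrophil growth factor, differed by -0.03 ± 0.22. Macrophage and monocyte markers had a mean between 8.86 and 9.18 in T cell mice given vehicle, against 8.27 and 8.63 in marrow-only mice given vehicle, with 4 of 10 called higher, among them C1qb, a complement component, at 0.74 ± 0.16 (limma adjusted p = 0.0205). Ly6c2, a monocyte surface protein, differed by 0.20 ± 0.27. Under ICA the macrophage and monocyte mean lay between 8.72 and 9.25 in T cell mice and 8.22 and 8.99 in marrow-only mice. There 9 of the 10 markers were above 0 difference and 2 were called higher. The share of all genes called was 1.47% under vehicle and 3.12% under ICA. The part of these cells in the Il1a and Il1b values was not tested.

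Il33 differed little between any groups. Its level ran from 7.03 to 7.58 in T cell mice given ICA and from 6.96 to 7.47 in T cell mice given vehicle, against 6.90 to 7.47 in marrow-only mice given ICA and 6.85 to 7.21 in marrow-only mice given vehicle. All 4 groups overlapped. The difference between T cell and marrow-only mice was 0.19 ± 0.14 under vehicle (95% interval -0.09 to 0.48) and 0.13 ± 0.12 under ICA (95% interval -0.13 to 0.38).

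Il18bp, the secreted protein that binds and blocks IL-18, did not follow Il18 under vehicle. Its level was 8.36, 8.79, 8.83 and 9.09 in T cell mice given vehicle, against 8.85, 8.81, 8.64 and 8.73 in marrow-only mice given vehicle. The groups overlapped, and they differed by 0.01 ± 0.19 (95% interval -0.38 to 0.40, limma adjusted p = 0.991). Under ICA it was 8.27, 8.56, 8.70, 8.58 and 8.74 in T cell mice, against 8.43, 9.14, 9.49, 8.85 and 9.54 in marrow-only mice. All T cell mice given ICA lay below 4 of the 5 marrow-only mice, and mouse 1 of the marrow-only group, an array that stood apart, lay below 4 of the T cell mice. The difference of -0.52 ± 0.17 was not called (limma adjusted p = 0.101). It was called without that mouse (-0.69, limma adjusted p = 0.00497), without the 3 arrays that stood apart (-0.61, adjusted p = 0.0123) and with mouse number as a block (adjusted p = 0.0442), in a range from 0.00497 to 0.266 over the alternatives. Its interaction was -0.53 ± 0.25 (limma adjusted p = 0.747, unadjusted p = 0.0474).

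Il1rn encodes the receptor antagonist that competes with both forms of interleukin 1, and it showed no called difference. Its level was 7.36, 7.86, 8.08 and 7.77 in T cell mice given vehicle, against 7.45, 7.78, 7.40 and 7.33 in marrow-only mice given vehicle. Mouse 1 of the T cell group was again its lowest, and the groups overlapped. The difference was 0.28 ± 0.19 under vehicle (limma adjusted p = 0.602) and -0.15 ± 0.17 under ICA (limma adjusted p = 0.731).

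The 2 chains of the IL-18 receptor were higher in all T cell mice given vehicle than in all marrow-only mice given vehicle, without passing the threshold. Il18r1, the chain that binds IL-18, was 6.99, 6.79, 7.40 and 6.68 in T cell mice given vehicle, against 6.56, 6.60, 6.26 and 6.43 in marrow-only mice given vehicle. The difference was 0.50 ± 0.19 or 1.42-fold (limma adjusted p = 0.221). Il18rap, the signalling accessory chain, was 6.35, 6.46, 6.69 and 6.30, against 6.12, 6.26, 5.56 and 5.79 in the same groups. The groups did not overlap, but their nearest mice lay close. It differed by 0.52 ± 0.20 or 1.44-fold (limma adjusted p = 0.244). Groups that do not overlap were found for 10.5% of all genes in this comparison, and for 3 of the 9 family genes, Il18 and these 2. Under ICA they were found for 3.33% of all genes and for Il18 alone of the 9.

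Under ICA neither chain differed between the arms. Il18r1 was 6.29, 7.09, 6.83, 6.67 and 7.18 in T cell mice given ICA, against 6.36, 6.85, 7.08, 6.72 and 7.17 in marrow-only mice given ICA. The ranges nearly coincided, and the difference was -0.03 ± 0.17 (95% interval -0.38 to 0.32). Il18rap was 6.08, 6.50, 6.33, 6.09 and 6.62 in T cell mice given ICA, against 5.80, 6.59, 6.72, 5.82 and 6.69 in marrow-only mice given ICA, a difference of 0.00 ± 0.18 (95% interval -0.38 to 0.38). In marrow-only mice the differences between ICA and vehicle were 0.37 ± 0.18 for Il18r1 (limma adjusted p = 0.661, unadjusted p = 0.0492) and 0.39 ± 0.19 for Il18rap (limma adjusted p = 0.665). The interactions were -0.53 ± 0.25 for Il18r1 and -0.52 ± 0.27 for Il18rap (limma adjusted p = 0.747 and 0.763).

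The 2 receptor genes lie side by side on chromosome 1 and correlated over the 18 arrays at r = 0.867, and at 0.811 after group means were taken off. The mean of the T cell marker list was also higher with donor T cells: over 8 measured markers it lay between 7.56 and 8.34 in T cell mice given ICA and 7.61 and 8.53 in T cell mice given vehicle, against 6.79 to 7.76 in marrow-only mice given ICA and 6.65 to 7.20 in marrow-only mice given vehicle. Of these 8 markers, 4 were called higher in T cell mice under vehicle, among them Cd3g and Cd3e, parts of the T cell receptor complex, at 1.73 ± 0.35 and 1.32 ± 0.32. Of all genes, 1.47% were called under vehicle and 3.12% under ICA. Under ICA 6 of the 8 were above 0 difference, with a median of 0.54, against 7 of 8 and 0.97 under vehicle. Of the 8, 2 were called higher under ICA and 1 lower. The lower was Cd4, the coreceptor of helper T cells, named here after its values were seen. Cd4 fell by 0.71 ± 0.19 (limma adjusted p = 0.0448) and differed by -0.16 ± 0.21 under vehicle. Cd3g and Cd3e differed by 0.88 ± 0.32 and 0.69 ± 0.28 under ICA and were not called there. The 2 called higher under ICA were other markers of the list, so Cd3g, Cd3e and Cd4 do not stand for the whole list there. Averaged over the mice of a group, the list mean was 8.07 in T cell mice and 7.39 in marrow-only mice under ICA. Under vehicle these averages were 8.03 and 6.99. Natural killer and innate lymphocyte markers were above 0 difference for 4 of 6 measured genes under vehicle and 3 of 6 under ICA. Their medians were 0.29 and -0.06, with 0 and 1 called higher. Under vehicle their mean lay between 6.06 and 6.42 in T cell mice and 5.84 and 5.97 in marrow-only mice. Under ICA it lay between 5.86 and 6.30 in T cell mice and 5.86 and 6.29 in marrow-only mice. The part of the number of any of these cells in the receptor values was not tested. Other receptor genes of the same cluster were not called: Il1r1, the signalling receptor of interleukin 1, differed by 0.29 ± 0.12 under vehicle, Il1r2, its decoy, by 0.31 ± 0.17, and Il1rl2, the receptor of IL-36 cytokines, by 0.35 ± 0.14.

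**Figure D3:**
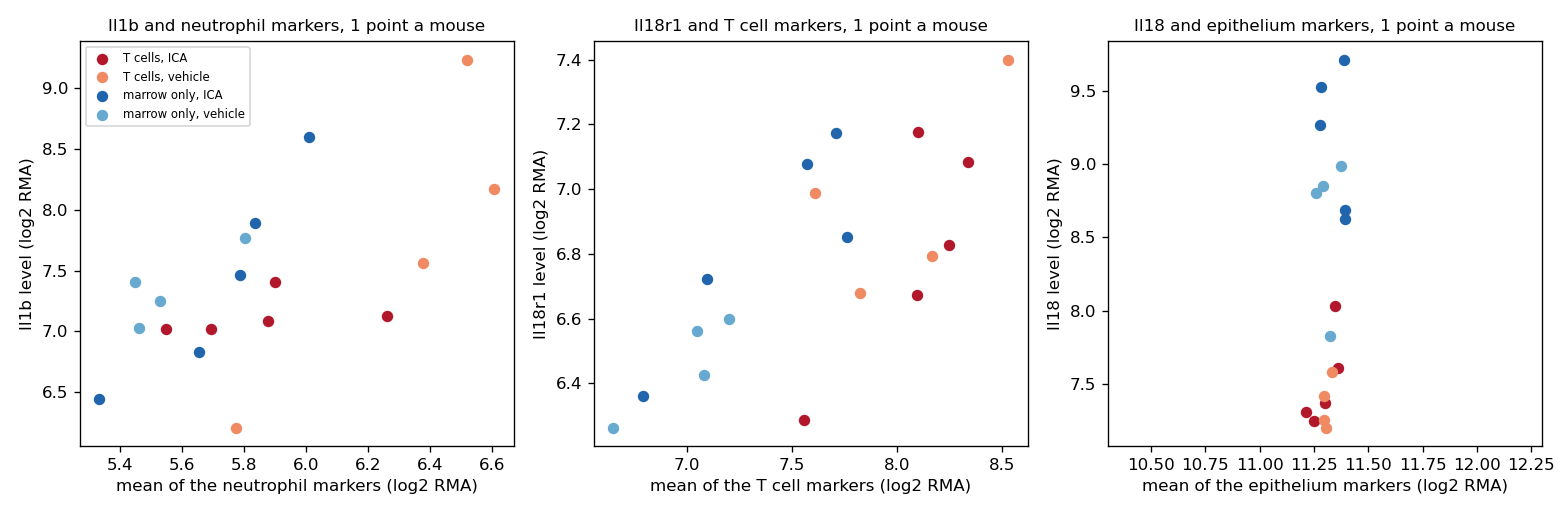
Level of Il1b, Il18r1 and Il18 in each of 18 mice (log2 RMA value, vertical axes) against the mean of the neutrophil, T cell and epithelium marker lists (log2 RMA value, horizontal axes), coloured by group. The epithelium mean stays between 11.22 and 11.39 while Il18 runs from 7.20 to 9.71, and the T cell vehicle mouse with the lowest Il1b, at 6.21, has the lowest neutrophil mean of its group, at 5.77.

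Casp1, the protease that cuts the IL-18 and IL-1 beta precursors, was steady. Its level ran from 9.87 to 10.18 in T cell mice given ICA and from 10.03 to 10.25 in T cell mice given vehicle, against 9.76 to 10.25 in marrow-only mice given ICA and 9.91 to 10.22 in marrow-only mice given vehicle. The groups overlapped throughout. The difference between T cell and marrow-only mice was 0.08 ± 0.10 under vehicle (95% interval -0.13 to 0.29) and 0.00 ± 0.09 under ICA (95% interval -0.19 to 0.18), and ICA differed from vehicle by -0.08 ± 0.10 with T cells and 0.01 ± 0.10 without.

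Counted over the family, the T cell difference under vehicle was above 0 for 8 of 9 genes, with a median of 0.28 against 0.01 over all genes, and 1 gene, Il18, was called. Under ICA it was above 0 for 3 and below 0 for 6, with a median of -0.03 against -0.01 over all genes, and again only Il18 was called. At an unadjusted p under 0.05 these counts were 4 of 9 under vehicle, where 13% of all genes lay, and 2 of 9 under ICA, where 16.6% lay. Between ICA and vehicle 0 of 9 were called by limma in T cell mice (0.0135% of all genes; 0 at an unadjusted p under 0.05, as 6.89% of all genes were) and 0 of 9 in marrow-only mice (0.00451% of all genes; 2 at an unadjusted p under 0.05, Il18 and Il18r1, as 7.52% of all genes were). All 9 differences between marrow-only mice given ICA and those given vehicle were above 0, with a median of 0.20 against 0.01 over all genes. In the interaction 0 of 9 were called (0% of all genes; 2 at an unadjusted p under 0.05, Il18bp and Il18r1, as 6.68% of all genes were), and all 9 were below 0, with a median of -0.52 against -0.02 over all genes. The vehicle mice enter both the T cell and the ICA differences, so these counts are not independent of each other. The family was also chosen with earlier results of these data known, so the counts are not a test.

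**Figure D4:**
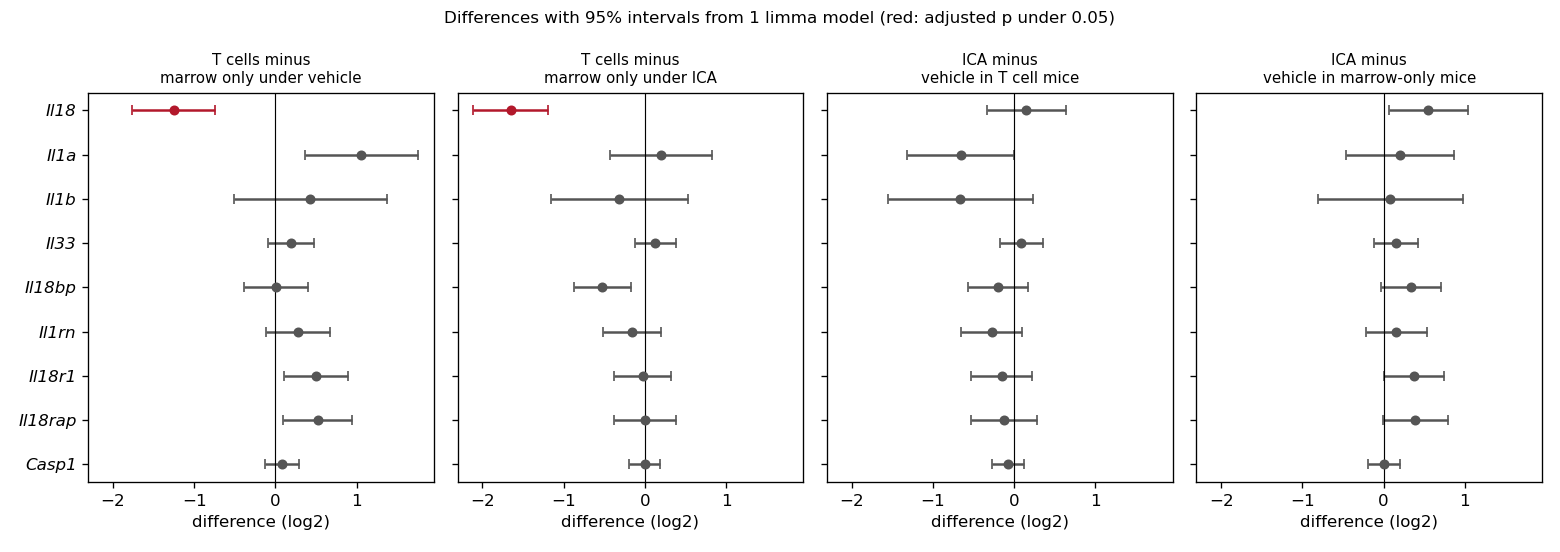
Differences (log2, horizontal axis) with 95% intervals for the 9 family genes in 4 comparisons from 1 limma model. Il18 is drawn in red where it was called, at -1.25 under vehicle and -1.65 under ICA, and the other 8 genes are in grey in every panel.

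The wider pathway was described through 9 lists of inflammasome, caspase, ligand, receptor, signalling, protease and target genes, of which 90 of 102 were measured. In T cell mice 0 rose and 3 fell under vehicle (3.33% of the 90, against 1.47% of all genes), and 0 rose and 5 fell under ICA (5.56%, against 3.12% of all genes). By limma 0 of the 90 were called between ICA and vehicle in either arm or in the interaction. The lists were chosen with earlier results of these data known, so the shares above are a description and not a test. The genes that fell were Casp4, Casp8 and Nfkbiz under vehicle and Casp4, Card14, Myd88, Nfkbia and Nfkbiz under ICA.

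Casp4, the mouse caspase-11 that senses bacterial lipopolysaccharide inside cells and lies next to Casp1 on chromosome 9, was lower under both treatments. Under vehicle it was 9.71, 9.66, 9.41 and 9.37 in T cell mice, against 9.77, 10.05, 10.15 and 10.17 in marrow-only mice, a fall by 0.50 ± 0.12 (limma adjusted p = 0.0412). Under ICA it was 9.70, 9.39, 9.68, 9.71 and 9.56 in T cell mice, against 10.35, 9.77, 10.33, 10.16 and 10.19 in marrow-only mice, a fall by 0.55 ± 0.11 (limma adjusted p = 0.0063). The groups did not overlap under either treatment. The vehicle call was lost in 10 of the 18 omissions of 1 mouse and without the 3 arrays that stood apart (adjusted p = 0.0603), with limma adjusted p between 0.0151 and 0.143 over the omissions, and the ICA call was kept in all 18.

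Nfkbiz encodes an inducible nuclear protein of the NF-kB inhibitor family that responds to interleukin 1. Under vehicle its level was 8.16, 8.21, 8.05 and 8.17 in T cell mice, against 8.70, 8.99, 8.63 and 8.98 in marrow-only mice. Under ICA it was 8.23, 7.99, 8.19, 8.22 and 8.10 in T cell mice, against 8.53, 8.89, 9.08, 8.54 and 8.61 in marrow-only mice. All T cell mice lay below all marrow-only mice. Nfkbiz fell by 0.68 ± 0.11 under vehicle (limma adjusted p = 0.00395) and by 0.59 ± 0.10 under ICA (limma adjusted p = 0.00228), and both calls were kept without any 1 mouse.

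Nfkbia, the NF-kB inhibitor that is itself an NF-kB target, was 8.77, 8.84, 8.82, 8.80 and 8.81 in T cell mice given ICA, against 9.12, 9.41, 9.32, 9.18 and 9.26 in marrow-only mice given ICA. The groups were well apart and it fell by 0.45 ± 0.07 (limma adjusted p = 0.00156). Card14, an epithelial scaffold that activates NF-kB, was 6.52, 6.87, 6.68, 6.84 and 7.13 in T cell mice given ICA, against 7.48, 7.76, 7.83, 7.80 and 7.94 in marrow-only mice given ICA. It fell by 0.96 ± 0.13 (limma adjusted p = 0.000388). Under vehicle the differences were -0.09 ± 0.08 for Nfkbia and -0.27 ± 0.14 for Card14. The interactions were -0.36 ± 0.11 for Nfkbia (limma adjusted p = 0.694, unadjusted p = 0.00454) and -0.68 ± 0.19 for Card14 (limma adjusted p = 0.677, unadjusted p = 0.00216). Neither was called, so a difference between treatments is not shown.

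Casp8, a caspase of cell death that can also cut interleukin precursors, fell by 0.30 ± 0.08 under vehicle (limma adjusted p = 0.0498), and the call was lost in 15 of 18 omissions of 1 mouse and without the 3 arrays that stood apart (adjusted p = 0.0665). Myd88, the adaptor of the receptors of this family, fell by 0.26 ± 0.07 under ICA (limma adjusted p = 0.0485), and that call was lost in 16 of 18 omissions and without the 3 arrays (adjusted p = 0.0537). Il1rap, the accessory chain shared by the receptors of IL-1, IL-33 and IL-36, differed by -0.28 ± 0.07 under vehicle and was not called (limma adjusted p = 0.0551). Under ICA it differed by 0.02 ± 0.06, and its interaction of 0.30 ± 0.10 was not called (limma adjusted p = 0.71, unadjusted p = 0.00572).

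**Figure D5:**
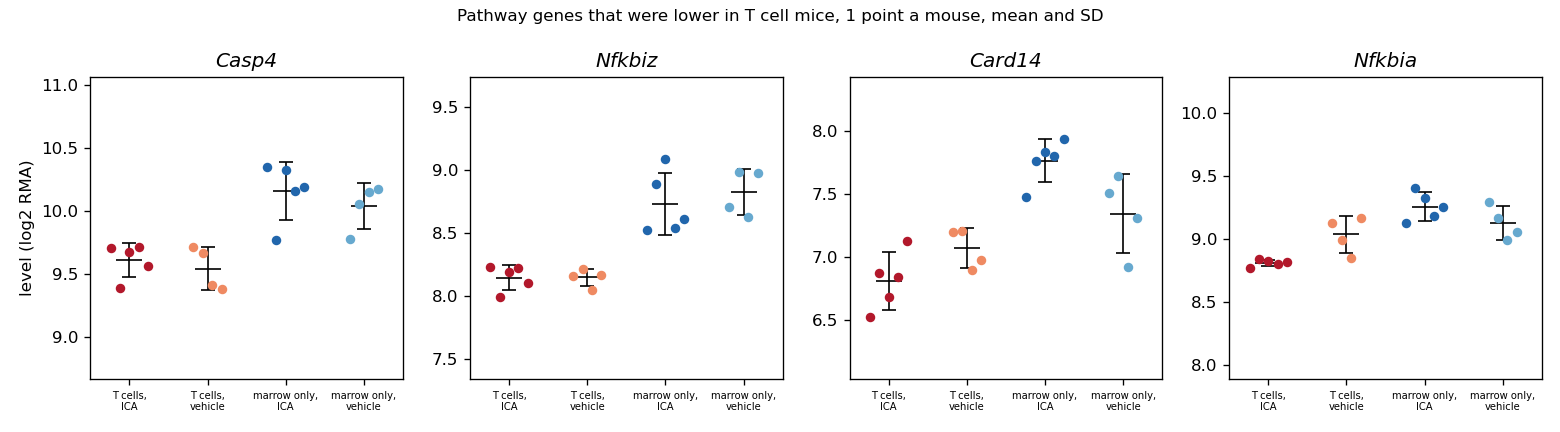
Levels of Casp4, Nfkbiz, Card14 and Nfkbia (log2 RMA value, vertical axis) in the 4 groups, 1 point a mouse, with the group mean and SD as bars. Casp4 and Nfkbiz are lower in all T cell mice than in the marrow-only mice of the same treatment, while Card14 and Nfkbia are separated only under ICA.

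The 14 measured inflammasome sensors and adaptors held 0 called genes under vehicle or ICA, with medians of 0.13 and -0.14. Over all genes 1.47% were called under vehicle and 3.12% under ICA. A count of 0 in this list or the short lists below is therefore not read as a result about them. The smallest p under vehicle belonged to Nlrp12, a regulatory sensor, at 0.37 ± 0.13, and Mefv, which encodes pyrin, at 0.34 ± 0.12. Of 9 measured genes of the interferon gamma axis that IL-18 acts on, 0 were called. Stat4, the signal transducer of interleukin 12, differed by 0.84 ± 0.26 under vehicle (limma adjusted p = 0.119) and Il12rb1, a chain of the interleukin 12 receptor, by 0.40 ± 0.17. Ifng itself, named after its values were seen, differed by 0.69 ± 0.31 under vehicle (limma adjusted p = 0.341) and 0.16 ± 0.28 under ICA.

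Among 12 measured target cytokines of interleukin 1 and NF-kB, 0 were called. Ptgs2, the inducible cyclooxygenase, differed by 0.61 ± 0.21 under vehicle and Ccl20, a chemokine of the epithelium, by -0.37 ± 0.16 (limma adjusted p = 0.16 and 0.313). Of 10 type 2 genes set beside IL-33, 0 were called: Klrg1, a receptor of innate lymphocytes and killer cells, differed by 0.36 ± 0.19 under vehicle and 0.58 ± 0.17 under ICA (limma adjusted p = 0.0668 under ICA), and Rora, a transcription factor of type 2 innate lymphocytes, by 0.14 ± 0.09 under vehicle. Of 8 proteases reported to cut the cytokines, 0 were called: Mmp9, a matrix metalloproteinase, differed by 0.51 ± 0.21 under vehicle and Mcpt4, a mast cell chymase, by -0.46 ± 0.20. The IL-36 receptor antagonist Il1f5 and its relative Il1f10, neighbours of Il1rn, differed by -0.08 ± 0.15 and 0.07 ± 0.11 under vehicle, and Tab2, a signalling adaptor, by -0.18 ± 0.08.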

How the data were processed

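RNA of 18 ilea, 250 ng each, was hybridised to Affymetrix whole-transcript arrays, 1 per mouse. The deposited values are on a log2 scale after RMA; Partek, GenomeStudio and RMA are named without versions in the submitters' processing notes, and the log base was taken from the range of the values, since it is not given in the sources used here. Of 41345 probe sets, 23521 had 1 annotated symbol, 1814 several and 16010 none listed; a gene was tested on its probe set with the highest mean, giving 22180 genes, with no further filter or normalization.

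A single model with 4 group means was fitted in R 4.3.3 with limma 3.58.1 and a trend of the prior variance (14 residual and 6.1 prior degrees of freedom). Tests were two-sided, with Benjamini-Hochberg adjustment over all genes of a comparison. The 5 comparisons were T cell against marrow-only mice in each treatment, ICA against vehicle in each arm, and the interaction. The members and the 21 gene lists were chosen with earlier results of these data known. All members are named, with every called gene of the 9 pathway lists and the 2 of each list with the smallest p under vehicle. Of marker lists set beside a member, the 2 genes with the highest mean are named. The smooth muscle, fibroblast and endothelial lists are given as counts only, and the natural killer and innate lymphocyte list without named genes. The genes most like Il18 are named as well.

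The model code was first checked on simulated arrays. The number of arrays limits the precision. Alternatives were omission of each mouse, mouse number as a block, a model restricted to the compared groups, further quantile normalization, centring, 2 filters on low values, other uses of probe sets, 2 other prior variances and array weights; omission of the 3 arrays that stood apart was added after the data were seen. Promoter windows are from RefSeq (GRCm38.p6), and all 10 members matched by symbol.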

Additional observations from a re-analysis of the deposited data

Results flagged for a closer look

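A closer look was taken at single mice that lay far from the rest of their group, by Dixon's test of the gap at the end of a group, in 64 pairs of a gene and a group (the 9 family genes, the 6 called pathway genes and Tex12). The test picked 3 pairs, and chance picks about 1 in 20 groups. Il18 in marrow-only vehicle mouse 3 was 7.83, with the other 3 mice between 8.80 and 8.99, a gap of 0.842 of the group's range. This mouse is also 1 of the 3 arrays that stood apart; the T cell difference of Il18 under vehicle was -1.52 without it and -1.25 with it. Casp8 in marrow-only ICA mouse 2 was 10.55, with the other 4 mice between 10.84 and 10.94. Myd88 in T cell vehicle mouse 1 was 9.49 (9.485 before rounding), with the other 3 mice between 9.34 and 9.35. No interaction of a family gene or of a called pathway gene passed the threshold.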

How the results depend on the processing

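No called difference reversed direction in any alternative. Some differences that were not called changed sign: Il1b (-0.05 at the lowest, against 0.43 as reported) and Il18bp between the arms under vehicle, Casp1, Il18r1 and Il18rap between the arms under ICA, Casp1, Il1a and Il1b between marrow-only mice given ICA and those given vehicle, and Il33 in the interaction. The count of family genes called in T cell against marrow-only mice was 1 under vehicle and ranged from 0 to 2 with 1 mouse left out; it was 2 with array weights, where Il1a passed. Under ICA it was 1 and ranged from 1 to 2 with 1 mouse left out. It was 2 with mouse number as a replicate block and without the 3 arrays that stood apart, where Il18bp passed. The cause of these changes was not tested. With the replicate block the calls of Casp4 (adjusted p = 0.0538) and Casp8 (0.0536) under vehicle and of Myd88 (0.0807) under ICA were lost. The mice share only a number: same-numbered mice deviated from their group means with r between -0.142 and 0.166. The block left the number of family genes called at 1 under vehicle and at 0 in both ICA comparisons.

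Counts over all genes moved more. Under vehicle 327 genes were called for the T cells, 94 to 515 with 1 mouse left out, 824 in a model of only the groups compared, 1074 with array weights and 664 without the 3 arrays. Under ICA 693 were called, 378 to 1373 with 1 mouse left out, and 321, 1049 and 1515 in those 3 settings. For ICA in T cell mice 3 were called, 1 to 9 with 1 mouse left out, and 49, 13 and 39 in those settings. For ICA in marrow-only mice 1 was called, 0 to 119 with 1 mouse left out, 9 without the 3 arrays, and 0 with the block, with a robust prior or with only the groups compared. In the interaction 0 were called, 0 to 2 with 1 mouse left out and 3 without the 3 arrays. With 4 or 5 mice a group the number of arrays limits what can be called, and a gene that missed the threshold is not shown to be unchanged.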
